A study of Mus musculus with 21 samples.

Results

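The genes described here are 39 interferon-stimulated genes, measured by RNA-seq in microglia and infiltrating myeloid cells sorted from injured and sham-operated mouse brain. They were taken by symbol from the table of gene counts, and 39 of 39 were found among its 45706 genes and passed the filter of at least 5 counts over all libraries. Adult male mice on the C57BL/6 background were either WT or Fgg390-396A, a knock-in whose fibrinogen γ chain still clots but lacks the motif bound by the leukocyte integrin CD11b/CD18. Injury was a controlled cortical impact (CCI), a contusion made by a piston on the exposed cortex, and sham controls were WT mice given anesthesia, incision and craniotomy without impact. Microglia (Mg, CD45low CD11b+) were sorted from sham controls and, at 1 d or 7 d after CCI, from either genotype. Infiltrating myeloid cells (Mp, CD45hi CD11b+) were sorted from either genotype at 1 d only. This gave 7 groups of 3 libraries, 21 in all, each of 40000 microglia or 25000 infiltrating cells pooled from 2 brains. There was no sham Fgg390-396A group, and infiltrating cells were sorted neither from sham controls nor at 7 d.

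Interferons are secreted cytokines that signal through surface receptors and JAK kinases to the STAT transcription factors. Type I interferons assemble the complex ISGF3, which contains IRF9 and binds the interferon-stimulated response element (ISRE) in target promoters, whereas interferon-γ acts through the GAS element. The induced genes encode sensors of foreign nucleic acid, enzymes that block translation or degrade RNA, membrane proteins that hold back viral entry or release, and further STAT and IRF factors that prolong the response. Microglia are known to express this program in viral infection, in aging and around lesions. The members were ordered by these roles into 4 transcription factors, 5 nucleic acid sensors, 3 genes of the ISG15 system, 11 RNA-directed effectors, 6 membrane and other effectors, and 10 others.

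The promoters of 4 members are shown because they carry the response elements described above and belong to genes that the comparisons below turn on. Sequences are from RefSeq (GRCm38.p6), run 5′ to 3′ on the strand of the gene from 250 bases before to 50 bases after the annotated start, and have motif matches in capitals. Ifit1 (chr19:34640639-34640938, plus strand) has 2 separate ISRE matches, Isg15 (chr4:156200769-156201068, minus strand) has 3 overlapping ones in a single run, and Rsad2 (chr12:26456403-26456702, minus strand) has 1. The upstream promoter of Irf1 (chr11:53769764-53770063, plus strand) has a GAS match and no ISRE match.
Ifit1: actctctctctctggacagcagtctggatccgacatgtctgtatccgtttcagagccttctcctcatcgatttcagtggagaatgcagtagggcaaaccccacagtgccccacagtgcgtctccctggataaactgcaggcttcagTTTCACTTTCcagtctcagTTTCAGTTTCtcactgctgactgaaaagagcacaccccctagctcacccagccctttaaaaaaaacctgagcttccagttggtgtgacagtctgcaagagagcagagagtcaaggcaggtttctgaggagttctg
Isg15: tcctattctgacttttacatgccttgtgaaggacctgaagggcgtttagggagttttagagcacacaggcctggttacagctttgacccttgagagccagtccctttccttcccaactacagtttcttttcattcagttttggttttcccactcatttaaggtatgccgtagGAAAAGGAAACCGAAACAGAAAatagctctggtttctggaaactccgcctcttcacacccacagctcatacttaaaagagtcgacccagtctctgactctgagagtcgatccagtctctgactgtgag
Rsad2: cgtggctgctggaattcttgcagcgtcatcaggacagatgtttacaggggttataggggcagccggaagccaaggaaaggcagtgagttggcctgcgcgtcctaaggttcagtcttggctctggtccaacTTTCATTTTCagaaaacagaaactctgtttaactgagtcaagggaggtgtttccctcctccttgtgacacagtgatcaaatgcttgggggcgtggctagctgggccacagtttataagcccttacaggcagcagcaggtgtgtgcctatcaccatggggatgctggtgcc
Irf1: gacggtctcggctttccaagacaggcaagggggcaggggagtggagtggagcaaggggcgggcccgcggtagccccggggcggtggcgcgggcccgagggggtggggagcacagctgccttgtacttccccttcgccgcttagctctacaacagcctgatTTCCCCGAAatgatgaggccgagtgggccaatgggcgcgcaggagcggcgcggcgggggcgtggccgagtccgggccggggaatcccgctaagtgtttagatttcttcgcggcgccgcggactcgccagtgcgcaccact
The ISRE search used the letters GAAANNGAAA and the GAS search TTCNNNGAA, on both strands, and matches of one could overlap those of the other. The promoter table held 29 of the 39 members, with 37 promoters. An ISRE match was found in 16 of the 29 genes (55.2%), against 3.99% of all 27025 genes in the table. A GAS match was found in 8 of the 29 (27.6%), against 9.55% of all genes, and 4 members had both. Among the 16 members with an ISRE match were Bst2, Ddx58, Eif2ak2, Ifih1, Ifit3, Ifit3b, Ifitm3, Oas1a, Oas3, Slfn5, Slfn8, Stat2 and Trim30a. Irf7, Irf9, Oasl1, Oasl2, Sp100, Xaf1, Cmpk2, Herc6 and Ifi44 had neither match in this window.

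Members also lay together in the genome (GRCm38, GENCODE M21). Ifit2, Ifit3, Ifit3b and Ifit1, which bind viral RNA and hold back its translation, followed each other on chromosome 19 between 34550694 and 34650009. Oas2, Oas3 and Oas1a lay on chromosome 5 between 120730333 and 120907521, and Oasl2 and Oasl1 on the same chromosome between 114896936 and 114937915. Rsad2 (chromosome 12, 26442746 to 26456452) and Cmpk2 (26469204 to 26479837) were neighbours, as were Slfn5 and Slfn8 on chromosome 11 and Mx1 and Mx2 on chromosome 16. Some of these members are near copies, so that the division of reads between them is uncertain. Ifit3 and Ifit3b transcripts were 97.8% identical over 1700 bases, Oas1a and its copy Oas1g 97.6% over 1861, and Mx2 and Mx1 95.3% over 843. Transcripts of Ifi204 were 96.9% identical to Ifi211 over 1363 bases. These stretches made up 97.4% of the Ifit3 transcript and 98.7% of Oas1a, but 59.4% of Ifi204 and 34.05% of Mx2.

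Libraries held 18896957 to 51875767 counts (median 27001646), of which ribosomal RNA took 43.0 to 58.6%, and the members together 7802 to 214707. Levels are given as CPM, the counts of a gene relative to the size of its library, after TMM scaling. The deposited counts have transcript length divided out, so that CPM can be compared between genes. Before TMM scaling, 3 counts corresponded to 0.0578 to 0.159 CPM, so that this floor is approximate beside the scaled levels. A floor of this kind covers counting error only. The 10 microglia markers, among them P2ry12, Tmem119 and Sall1, were above 3 counts in every library, with sums of 11330 to 12710 CPM in sham microglia, 3947 to 8917 CPM in injured microglia and 447.8 to 1071 CPM in infiltrating cells. The 8 monocyte and macrophage markers, Ccr2 and Ly6c2 among them, summed to 7.08 to 148.5 CPM in microglia and 1898 to 2260 CPM in infiltrating cells. Infiltrating libraries also carried neutrophil markers, at 2490 to 12940 CPM over 8 genes, against 1.91 to 772.2 CPM in microglia.

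Expression of the members was lowest in sham microglia, somewhat higher at 1 d post-CCI, and highest in microglia at 7 d and in infiltrating cells. The mean log2 CPM over the 39 genes was 1.93 ± 0.44 (SD, n = 3) in sham microglia, 2.49 ± 0.34 in WT and 2.98 ± 1.04 in Fgg390-396A microglia at 1 d, and 4.50 ± 0.23 in WT and 4.10 ± 0.46 in Fgg390-396A microglia at 7 d. In infiltrating cells at 1 d it was 4.51 ± 0.18 in WT and 5.11 ± 0.63 in Fgg390-396A mice. By group mean, 25 members were lowest in sham microglia and 14 in WT microglia at 1 d, while 26 were highest in infiltrating cells from Fgg390-396A mice, 11 in WT microglia at 7 d and 2 in Fgg390-396A microglia at 7 d. The neighbours in this order overlapped: the 3 sham libraries lay at 1.75, 1.60 and 2.43 and the WT libraries at 1 d at 2.44, 2.18 and 2.84. In sorted bulk populations, more cells that express a gene and more RNA of it per cell cannot be told apart.

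**Figure D1:**
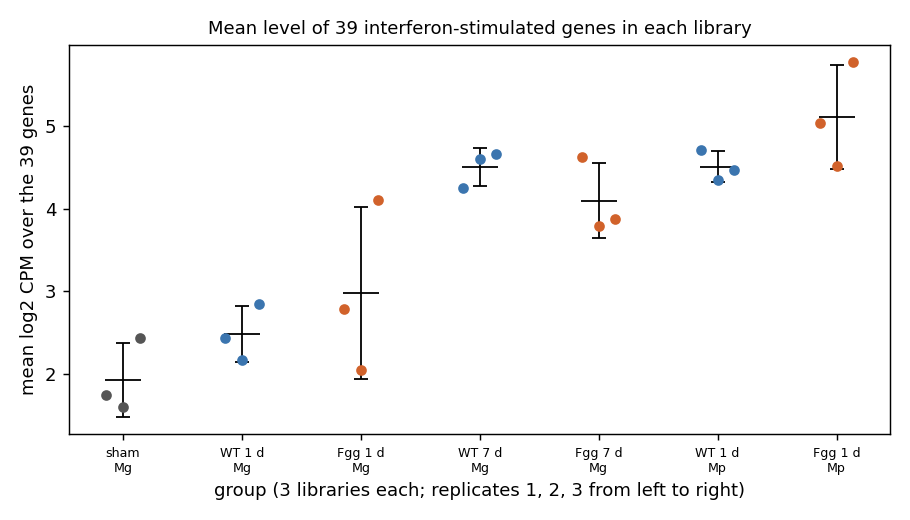
Mean log2 CPM over the 39 interferon-stimulated genes (vertical axis) in each of the 21 libraries (points, replicates 1 to 3 from left to right), by group; black lines are group means and bars the SD of 3 libraries. WT microglia at 7 d and WT infiltrating cells sit near 4.50, whereas Fgg390-396A microglia at 1 d spread from 2.05 to 4.10.

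The 2 most abundant members of each role show the range of levels. Irf9, the DNA-binding subunit of ISGF3, covered a narrow range. Its level was 14.5, 12.8 and 16.6 CPM in sham microglia, 12.7, 9.41 and 10.7 in WT and 13.7, 9.19 and 16.2 in Fgg390-396A microglia at 1 d, 21.9, 25.04 and 25.9 and 27.6, 21.9 and 21.5 at 7 d, and 21.7, 19.6 and 24.2 and 25.3, 21.2 and 31.5 in infiltrating cells. All libraries of Irf9 thus lay between 9.19 and 31.5 CPM. Ifi204, a DNA sensor of the p200 family, covered a far wider range. It was at 5.90, 4.52 and 12.3 CPM in sham microglia, 18.97, 20.5 and 28.8 and 21.1, 14.02 and 77.1 at 1 d, 69.5, 98.8 and 93.8 and 93.5, 38.6 and 54.96 at 7 d, and 125, 103 and 119 and 137, 87.9 and 229.5 in infiltrating cells, in each pair WT first. All infiltrating libraries lay above all sham and WT 1 d microglia libraries. Usp18, the protease that removes ISG15 from proteins and damps the interferon receptor, was at 0.892, 1.41 and 4.17 CPM in sham microglia, 2.18, 2.10 and 4.49 and 3.04, 1.49 and 17.2 at 1 d, 9.61, 11.8 and 12.9 and 12.5, 5.13 and 6.53 at 7 d, and 12.2, 11.2 and 13.1 and 16.6, 9.38 and 38.4 in infiltrating cells. Replicate 3 of the Fgg390-396A microglia at 1 d stood well above the other two. Oasl2, an OAS-like protein, was at 3.54, 3.30 and 10.01 CPM in sham microglia, 9.24, 5.79 and 12.4 and 10.8, 6.80 and 35.4 at 1 d, 50.1, 75.3 and 79.4 and 79.7, 35.2 and 44.3 at 7 d, and 84.9, 53.1 and 80.2 and 110.4, 55.7 and 149 in infiltrating cells. Trim30a, a TRIM-family protein, was expressed in sham microglia already, at 35.7, 34.4 and 37.9 CPM, with 36.6, 27.2 and 38.1 and 39.8, 32.4 and 66.2 at 1 d, 83.8, 92.2 and 86.2 and 92.5, 63.2 and 67.8 at 7 d, and 91.9, 41.8 and 81.3 and 76.03, 52.9 and 122 in infiltrating cells.

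Others among the most abundant members are given here where their values do not stand beside a comparison below. Ifitm3 was at 360.1, 387 and 414 CPM in WT and 368, 183 and 213 CPM in Fgg390-396A microglia at 7 d. Bst2 was at 116, 124 and 117 and 117, 62.6 and 67.7 CPM in microglia at 7 d, and at 128, 92.1 and 75.8 and 111, 111 and 152 CPM in infiltrating cells. Both genes encode membrane proteins. Isg15 was at 3.70, 2.51 and 7.06 CPM in sham microglia, 13.6, 19.9 and 21.4 CPM in WT microglia at 1 d, 22.98, 57.3 and 37.4 CPM in WT and 39.8, 18.5 and 18.8 CPM in Fgg390-396A microglia at 7 d, and 125, 88.97 and 109 and 178, 109 and 326 CPM in infiltrating cells. All infiltrating libraries of Isg15 lay above all sham libraries. Ifit3 was at 4.78, 3.30 and 4.73 CPM in sham microglia, and at 29.8, 51.4 and 51.01 CPM in WT and 63.04, 26.4 and 31.6 CPM in Fgg390-396A microglia at 7 d. Zbp1 was at 7.60, 7.49 and 9.95 CPM in WT microglia at 1 d, and at 91.8, 59.8 and 77.2 CPM in WT and 77.9, 67.4 and 141 CPM in Fgg390-396A infiltrating cells. All 7 d libraries of Ifit3 lay above the sham range. In infiltrating cells Ifi27l2a was at 429.8, 212 and 216 CPM in WT and 471, 248 and 519 CPM in Fgg390-396A mice, and Irf7 at 38.4, 32.9 and 29.3 and 91.6, 31.4 and 78.8 CPM. At the other end, Ifi44 had a median of 0.556 CPM over all libraries and was above 3 counts in 18 of 21.

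At 1 d post-CCI, most members did not pass the test in WT microglia. Against sham controls, 8 members rose and 3 fell (a log2 fold change beyond 1 in either direction with an adjusted p below 0.05, edgeR), beside 8.06% of all 23815 genes tested that rose and 4.21% that fell. The median log2 fold change of the members was 0.323, and of all genes 0. Those that rose were Bst2, Rsad2, Ifitm3, Zbp1, Isg15, Ifit1, Oasl1 and Ifi204, and those that fell were Ddx58, Slfn8 and Irf1. In 13 members all WT libraries lay above all sham libraries and in 7 below them, against 16.8% and 17% of all genes. The counts of members that fell or lay below sham are near these shares of all genes and are no result about the members.

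Bst2, also known as tetherin, retains budding virus at the cell surface. It was at 28.02, 24.2 and 36.6 CPM in sham and 65.96, 93.4 and 109.8 CPM in WT microglia (log2 fold change 1.60 ± 0.29 (SE), adjusted p = 0.00057). Rsad2, or viperin, makes a nucleotide that ends viral RNA chains, and rose from 0.223, 0.645 and 0.955 to 5.42, 4.34 and 7.61 CPM (log2 fold change 3.22 ± 0.72 (SE), adjusted p = 0.0031). Ifitm3, which blocks virus fusion in endosomes, rose from 17.6, 32.6 and 75.2 to 179, 132 and 213 CPM (log2 fold change 2.06 ± 0.51 (SE), adjusted p = 0.0068). For these 3 genes the groups did not overlap, and the calls held without any one library. The cytosolic RNA sensor Ddx58 (RIG-I) fell from 21.8, 20.2 and 24.2 to 10.6, 8.90 and 8.35 CPM (log2 fold change -1.25 ± 0.34 (SE), adjusted p = 0.013). Slfn8, of the Schlafen family, fell from 33.6, 30.5 and 34.4 to 17.7, 12.7 and 18.3 CPM (log2 fold change -1.02 ± 0.28 (SE), adjusted p = 0.014). Irf1, a factor induced by interferon-γ and NF-κB signaling, fell from 9.15, 9.49 and 17.3 to 6.11, 3.51 and 6.09 CPM (log2 fold change -1.20 ± 0.36 (SE), adjusted p = 0.027). No WT library of these 3 genes reached the sham range, although each of the 3 lost its call without WT replicate 2 at 1 d (adjusted p = 0.065, 0.1 and 0.16). Ddx58 and Irf1 also lost it without WT replicate 3 (adjusted p = 0.076 and 0.062), and Irf1 without sham replicate 3 (adjusted p = 0.17). Without that sham library the fold change of Slfn8 did not reach the fold threshold (adjusted p = 0.038).

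By role, the membrane and other effectors had the highest median at 1 d in WT microglia (1.31, 3 of 6 rose), and the transcription factors a median of -0.284 with none that rose. The nucleic acid sensors split into 2 that rose, 1 that fell and 2 that passed neither, Ifih1 at -0.05 and Dhx58 at -0.09 (log2 fold changes). The count of 11 called members was 6 without sham replicate 1 or 2 and 5 without WT replicate 2 or 3. Monocyte markers summed to 84.7 to 148.5 CPM and neutrophil markers to 122.8 to 772.2 CPM in these WT libraries, against 7.08 to 46.2 and 1.91 to 615.1 CPM in sham microglia, and their part in the result was not tested.

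In Fgg390-396A microglia at 1 d, 13 members rose against sham controls and 0 fell, beside 5.49% of all genes that rose and 1.15% that fell. The median log2 fold change was 0.969, and 35 members had a positive and 4 a negative one. Zbp1, a sensor of left-handed nucleic acids that triggers cell death, was at 0.797, 1.18 and 3.22 CPM in sham and 11.2, 5.79 and 40.5 CPM in Fgg390-396A microglia (log2 fold change 3.43 ± 0.60 (SE), adjusted p = 0.00063). Ifit1, which binds RNA without the host cap, was at 0.669, 0.304 and 1.46 and 3.39, 2.67 and 17.3 CPM (log2 fold change 3.20 ± 0.65 (SE), adjusted p = 0.0024), and Bst2 at 72.1, 84.8 and 148 CPM after injury (log2 fold change 1.78 ± 0.29 (SE), adjusted p = 4e-04). Groups did not overlap for these 3, but replicate 3 was the highest injured library each time. The others that rose were Irf7, Ifi204, Isg15, Ifit3, Oas1a, Oasl1, Rsad2, Ifitm3, Ifi27l2a and Slfn5, and in Oas1a, Ifitm3, Ifi27l2a and Slfn5 the groups overlapped. Without Fgg390-396A replicate 3, 4 members passed, and the median was 0.238. The control in this comparison was WT sham tissue, so that injury and genotype cannot be told apart.

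At 7 d most members were raised. In WT microglia 27 of 39 members rose against sham controls and 0 fell, beside 1.93% of all genes that rose and 0.0924% that fell. The median log2 fold change was 2.47, and in 38 members every WT library lay above every sham library, against 10.5% of all genes. In Fgg390-396A microglia 20 members rose and 0 fell, beside 0.63% and 0.0336% of all genes, with a median of 2.01 and 37 members without overlap, against 8.45% of all genes. These comparisons and those at 1 d used the same WT sham libraries, for which no day after surgery is given. In the Fgg390-396A comparison injury and genotype cannot be told apart.

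Ifi27l2a, a small interferon-induced membrane protein, had the smallest adjusted p among members in WT mice at 7 d. It was at 5.64, 11.8 and 19.99 CPM in sham microglia, 221, 232 and 231 CPM in WT (log2 fold change 4.19 ± 0.53 (SE), adjusted p = 0.00015) and 147, 99.01 and 138 CPM in Fgg390-396A mice (log2 fold change 3.35 ± 0.51 (SE), adjusted p = 0.0021). Irf7, the factor that amplifies type I interferon production, was at 2.23, 1.41 and 2.49 CPM in sham microglia, 23.1, 36.6 and 36.1 CPM in WT (log2 fold change 3.96 ± 0.54 (SE), adjusted p = 0.00033) and 26.4, 11.1 and 14.6 CPM in Fgg390-396A mice (log2 fold change 3.08 ± 0.53 (SE), adjusted p = 0.0053). For Slfn5 the values were 2.39, 1.78 and 6.36 CPM in sham microglia, 38.9, 42.1 and 34.7 CPM in WT (log2 fold change 3.44 ± 0.49 (SE), adjusted p = 0.00047) and 41.8, 28.3 and 24.2 CPM in Fgg390-396A mice (log2 fold change 3.15 ± 0.49 (SE), adjusted p = 0.0023). Each of these 3 was higher in all 6 injured libraries than in any sham library, although Irf7 did not pass in Fgg390-396A mice without sham replicate 2 (adjusted p = 0.05 after rounding). Zbp1 was at 32.2, 29.7 and 36.4 CPM in WT and 42.8, 19.8 and 21.6 CPM in Fgg390-396A microglia at 7 d (log2 fold changes over sham of 4.21 and 3.99, adjusted p = 0.00052 and 0.0021).

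The RNA-directed effectors were the role with the highest median, 3.24 in WT and 2.82 in Fgg390-396A microglia, with 10 of 11 and 8 of 11 that rose. The enzymes of the OAS family make the second messenger that activates RNase L, and Oas1a rose from 0.861, 2.32 and 3.87 to 19.8, 22.4 and 23.3 CPM in WT microglia. Oasl1 had the largest fitted fold change at 7 d in WT mice (log2 4.39), from sham levels of 0.191, 0.0759 and 0.377 CPM, near the floor of 3 counts. Eif2ak2, the kinase PKR, rose by less (log2 fold changes 1.39 and 1.19). The exonuclease Isg20 was the RNA-directed effector that did not pass in WT mice, at a log2 fold change of 1.58. Irf1 stood apart, with log2 fold changes of -0.18 in WT and 0.04 in Fgg390-396A microglia and overlapping groups. Ddx58 and Slfn8, which had fallen at 1 d, had log2 fold changes over sham of 0.88 and 0.88 in WT mice, neither of which passed the test, and Ifi35 and Irf9 were at 0.67 and 0.73. The count of 20 in Fgg390-396A mice was 8 without its replicate 1, 4 without sham replicate 1 and 3 without sham replicate 2, and the count of 27 in WT mice lay between 19 and 26 with any one library left out. Without sham replicate 3, the highest sham library in 34 members, the medians were 3.32 and 3.04.

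**Figure D2:**
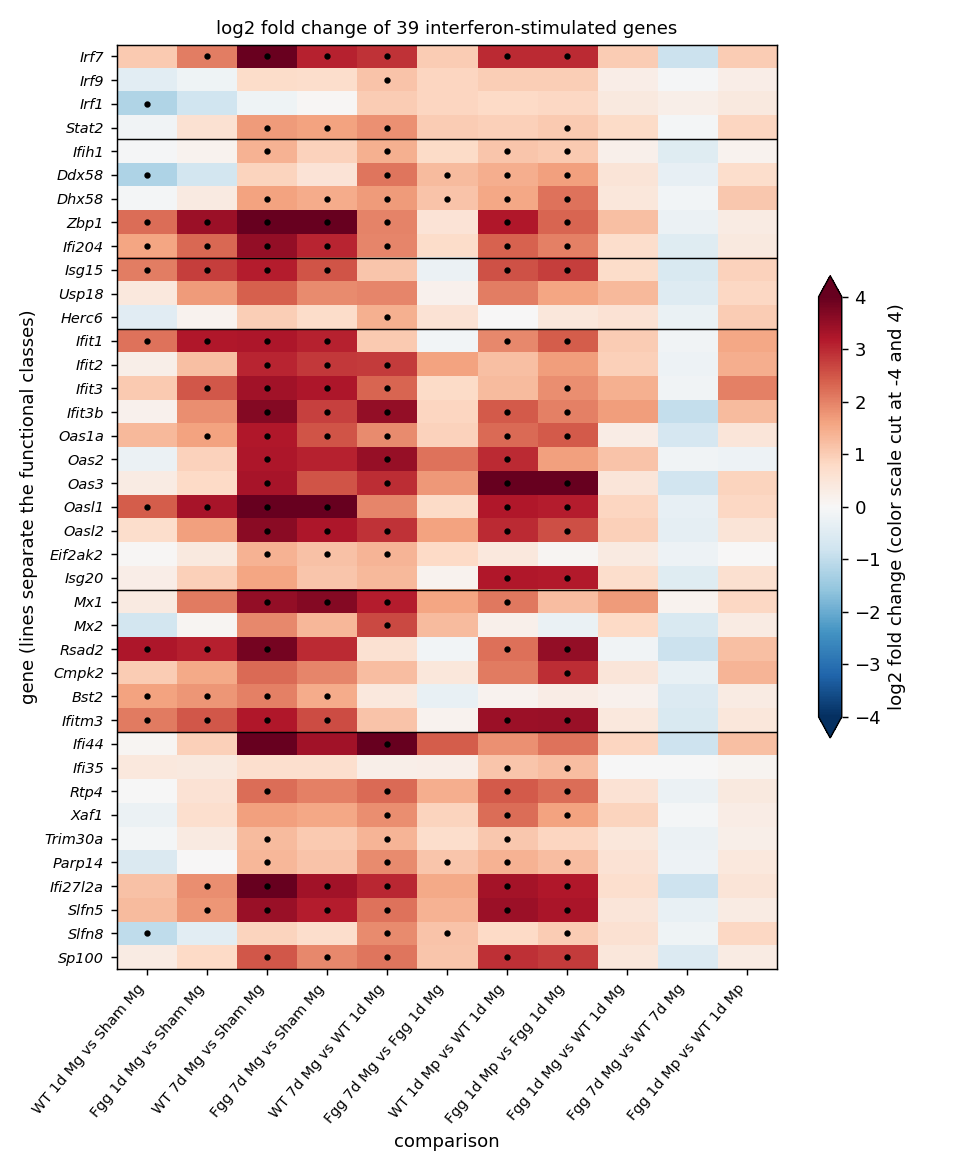
log2 fold change (color) of the 39 genes (rows, by role) in 11 comparisons (columns), each named as the first group against the second; black dots mark genes that passed the test. The columns for 7 d against sham hold 27 and 20 dots, all of them higher, and the 3 columns between genotypes on the right hold 0.

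Between 1 d and 7 d, 28 members rose in WT microglia and 0 fell, beside 2.67% of all genes that rose and 4.39% that fell. All 39 fold changes were positive, with a median of 1.90, and in 36 members the groups did not overlap, against 15.2% of all genes. The 3 with the smallest adjusted p were Slfn8, from 17.7, 12.7 and 18.3 to 51.8, 69.01 and 60.9 CPM (log2 fold change 1.90 ± 0.28 (SE), adjusted p = 0.00018), Parp14, an ADP-ribosyltransferase, from 10.8, 9.91 and 13.6 to 31.7, 50.6 and 45.95 CPM (log2 fold change 1.90 ± 0.29 (SE), adjusted p = 0.00025), and Ddx58, from 10.6, 8.90 and 8.35 to 26.6, 52.6 and 42.8 CPM (log2 fold change 2.13 ± 0.35 (SE), adjusted p = 0.00039). Of the 8 members that had risen by 1 d, Zbp1 and Ifi204 rose further (adjusted p = 0.024 and 0.017). Zbp1 lost this call without any 1 of 5 libraries, namely the 3 at 1 d and replicates 1 and 3 at 7 d (adjusted p up to 0.11), and Ifi204 without replicate 1 or 2 at 1 d or replicate 2 at 7 d (up to 0.091). The others did not pass, and among these Rsad2 had a log2 fold change of 0.61, Bst2 of 0.41 and Ifitm3 of 1.15 from 1 d to 7 d. Irf9 rose as well (log2 fold change 1.15 ± 0.21 (SE), adjusted p = 0.0011). All 5 nucleic acid sensors rose, as did 9 of the 10 others, the exception being Ifi35. Without WT replicate 2 at 1 d the count was 15.

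In Fgg390-396A microglia 4 members rose between 1 d and 7 d and 0 fell, beside 0.663% of all genes that rose and 2.88% that fell, and the median log2 fold change was 0.861. These were Slfn8, from 26.8, 14.4 and 32.5 to 61.4, 49.8 and 49.9 CPM (log2 fold change 1.13 ± 0.28 (SE), adjusted p = 0.018), Parp14, from 14.98, 11.6 and 25.1 to 44.8, 35.5 and 30.9 CPM (log2 fold change 1.11 ± 0.29 (SE), adjusted p = 0.025), Ddx58, from 14.5, 6.32 and 19.4 to 36.00, 25.6 and 35.1 CPM (log2 fold change 1.27 ± 0.34 (SE), adjusted p = 0.029), and Dhx58, also called LGP2, with a log2 fold change of 1.13 (adjusted p = 0.032). In 14 members the groups did not overlap, against 13.3% of all genes. This count rested on single libraries. It was 19, with a median of 1.72, without Fgg390-396A replicate 3 at 1 d, 0 without replicate 2 at 1 d or replicate 1 at 7 d, and 2 without replicate 1 at 1 d or replicate 3 at 7 d. DESeq2 gave 13 and a fit of the compared groups alone gave 0.

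Infiltrating myeloid cells carried more of these transcripts than microglia of the same genotype and time. In WT mice at 1 d 26 members were higher and 0 lower, beside 5.61% of all genes that were higher and 6.31% lower, with a median log2 difference of 2.09. In Fgg390-396A mice 27 were higher and 0 lower, beside 6.96% and 9.7% of all genes, with a median of 2.02. Groups did not overlap in 33 and 26 members, against 13.5% and 12% of all genes. Without replicate 3 of the Fgg390-396A microglia the second median was 3.03.

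Oas3, the long OAS enzyme, showed the largest difference, but from low levels in microglia, where WT replicate 2 lay below the floor of 3 counts. It was at 0.611, 0.0724 and 0.390 CPM in WT microglia and 10.8, 9.74 and 10.7 CPM in WT infiltrating cells (log2 fold change 4.86 ± 0.71 (SE), adjusted p = 7.1e-05), and at 0.626, 0.227 and 0.643 and 17.2, 11.9 and 28.6 CPM in Fgg390-396A mice (log2 fold change 5.26 ± 0.70 (SE), adjusted p = 2.1e-05). Slfn5 was at 8.44, 8.72 and 8.35 CPM in WT microglia and 77.8, 109 and 86.8 CPM in infiltrating cells (log2 fold change 3.42 ± 0.49 (SE), adjusted p = 5.7e-05), and at 8.58, 5.16 and 22.5 and 101, 72.3 and 171 CPM in Fgg390-396A mice (log2 fold change 3.26 ± 0.48 (SE), adjusted p = 6.9e-05). Sp100, a nuclear body protein, was at 12.1, 8.87 and 10.6 CPM in WT microglia and 87.8, 71.9 and 77.3 CPM in infiltrating cells (log2 fold change 2.91 ± 0.44 (SE), adjusted p = 9.6e-05). In all 3 genes every infiltrating library exceeded every microglia library of its genotype. Dhx58 was at 6.82, 4.66 and 12.1 CPM in Fgg390-396A microglia and 20.1, 44.1 and 41.96 CPM in infiltrating cells (log2 fold change 2.18 ± 0.31 (SE), adjusted p = 4.7e-05). Ifitm3 reached the highest level of any member, at 2260, 1673 and 1703 CPM in WT and 2321, 2556 and 2801 CPM in Fgg390-396A infiltrating cells, against 179, 132 and 213 and 174, 73.2 and 451 CPM in microglia.

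All 5 nucleic acid sensors were higher in infiltrating cells in both genotypes. Ifih1 was close to the thresholds (log2 fold change 1.11 ± 0.36 (SE), adjusted p = 0.039 in WT and log2 fold change 1.05 ± 0.35 (SE), adjusted p = 0.039 in Fgg390-396A mice). It lost its call in WT mice without replicate 1 or 2 of either cell type (adjusted p up to 0.15). In Fgg390-396A mice the call was lost without microglia replicate 1 or 2 or infiltrating replicate 3 (up to 0.37). There it was also lost in a fit of the compared groups alone (0.14) and in a fit that included the replicate number. Of the 11 RNA-directed effectors 8 were higher in each genotype, 7 of them in both. Bst2 did not pass in either genotype (log2 differences 0.14 and 0.30), nor did Irf9 (1.00 and 1.00), Irf1 (0.81 and 0.82), Eif2ak2 (0.41 and 0.08), Mx2 (0.19 and -0.25), Herc6, the main ISG15 ligase of the mouse (0.02 and 0.47), Usp18 (2.06 and 1.59), Ifit2 (1.20 and 1.69) or Ifi44 (1.83 and 2.16). Neutrophil and monocyte markers were far higher in the infiltrating libraries, as given above, and the cell types that carried the transcripts cannot be told apart there.

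**Figure D3:**
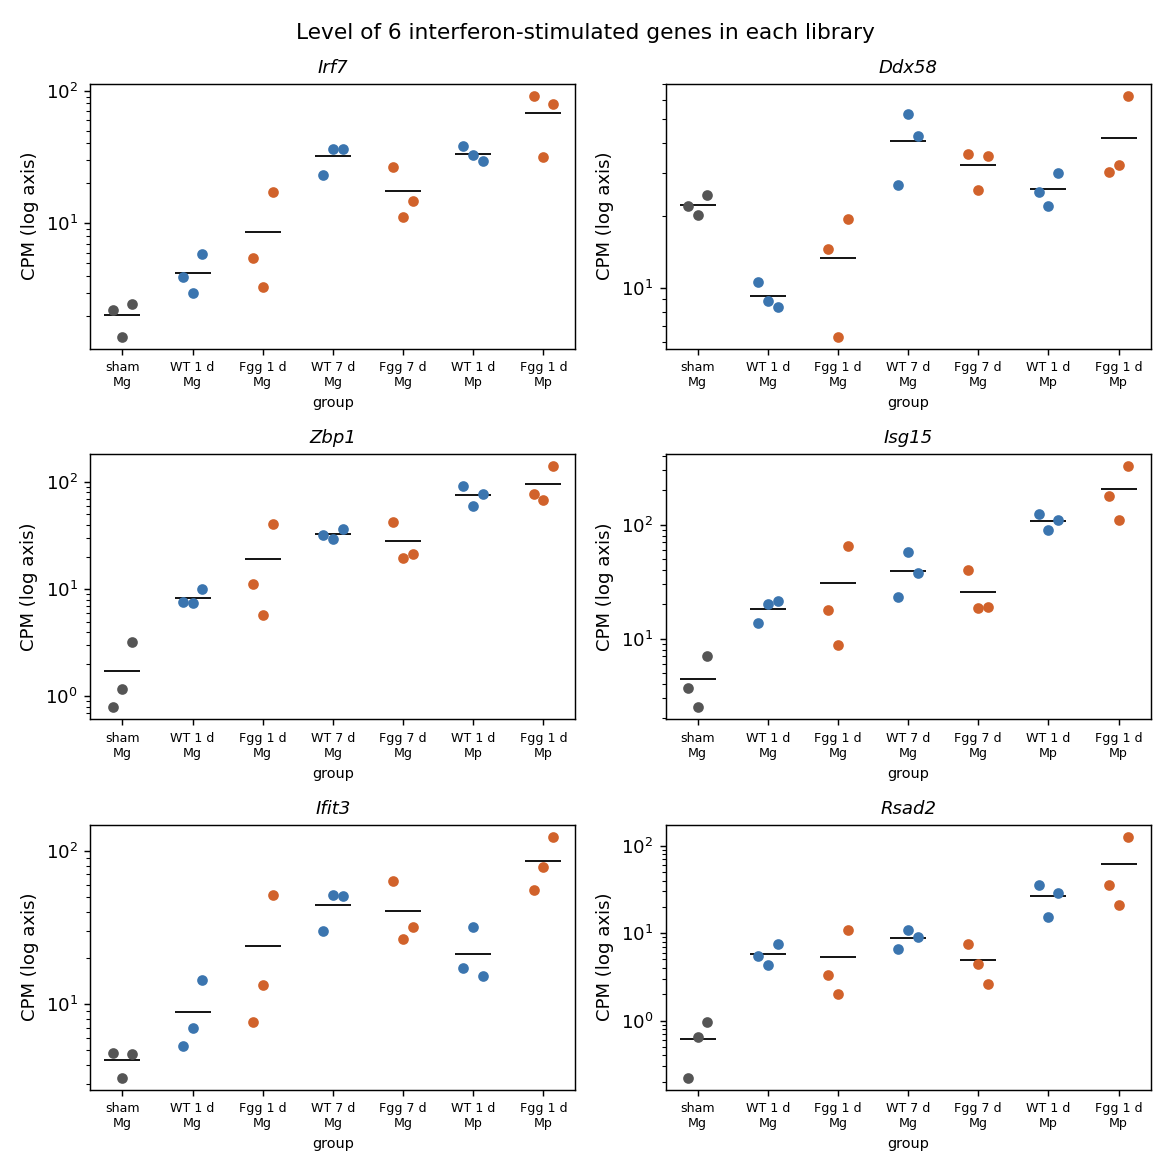
CPM (vertical, log axis) of Irf7, Ddx58, Zbp1, Isg15, Ifit3 and Rsad2 in each library (points, replicates 1 to 3 from left to right) by group, with group means as lines. Ddx58 is lower in every microglia library at 1 d than in sham microglia, Rsad2 is above sham in every injured library, and replicate 3 is the highest of the 3 Fgg390-396A microglia libraries at 1 d in all 6 genes.

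The comparison between genotypes sets Fgg390-396A mice, whose fibrinogen lacks the CD11b/CD18-binding motif, against WT mice after injury. Other differences between the mice of the 2 genotypes were not tested. In microglia at 1 d 0 of 39 members passed the test (a log2 fold change beyond 1 with an adjusted p below 0.1), beside 0.0336% of all genes that were higher and 0.021% lower in Fgg390-396A mice. DESeq2 also called 0. The median log2 fold change was 0.597, with 37 members positive, and 6 members had an unadjusted p under 0.05, against 5.08% of all genes. Those with the smallest p were Ifit3b, at 0.687, 0.579 and 1.13 CPM in WT and 1.15, 1.44 and 5.26 CPM in Fgg390-396A microglia (log2 fold change 1.69 ± 0.61 (SE), adjusted p = 0.89), and Ifit3, at 5.27, 6.95 and 14.4 and 7.61, 13.2 and 51.1 CPM (log2 fold change 1.43 ± 0.56 (SE), adjusted p = 0.89). Ifit3b was the single member whose groups did not overlap, against 5.73% of all genes. Mx1, a GTPase whose gene is defective in C57BL/6 mice, was at 1.60, 0.217 and 1.37 CPM in WT and 2.18, 1.06 and 7.27 CPM in Fgg390-396A microglia (log2 fold change 1.71 ± 0.68 (SE), adjusted p = 0.89), and Stat2 at 7.48, 4.56 and 6.87 and 8.35, 6.22 and 17.7 CPM (log2 fold change 0.76 ± 0.33 (SE), adjusted p = 0.89). In each of these 4 genes replicate 3 was the highest Fgg390-396A library. Without that library the median over the members was -0.0313, with 18 positive and 21 negative, and without WT or other Fgg390-396A libraries it was between 0.509 and 1.02.

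At 7 d the sign was the opposite, and again 0 members passed, by edgeR or DESeq2, beside 0.0252% of all genes higher and 0.0126% lower. The median log2 fold change of Fgg390-396A against WT microglia was -0.294, with 37 members negative and 2 positive, and 0 had an unadjusted p under 0.05. In 4 members all Fgg390-396A libraries lay below all WT libraries, against 5.28% of all genes. Ifit3b was at 10.2, 8.70 and 8.35 CPM in WT and 7.68, 3.12 and 3.23 CPM in Fgg390-396A microglia (log2 fold change -0.95 ± 0.57 (SE), adjusted p = 1). Without Fgg390-396A replicate 1, the highest library of its group in 39 of 39 members, the median was -0.639, and it lay between -0.511 and -0.159 without any other library.

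In infiltrating cells at 1 d 0 members passed by edgeR, beside 0.252% of all genes higher and 0.202% lower in Fgg390-396A mice, and 2 passed by DESeq2. The median log2 fold change was 0.531, with 38 members positive and 10 with an unadjusted p under 0.05, against 11.5% of all genes. With any 1 library left out this median lay between 0.19 and 0.836, and replicate 3 was the highest Fgg390-396A library in 36 members. In 10 members the groups did not overlap, all higher in Fgg390-396A mice, against 3.16% of all genes in that direction. Ifit3 was at 17.1, 31.7 and 15.1 CPM in WT and 55.4, 78.6 and 124 CPM in Fgg390-396A infiltrating cells (log2 fold change 2.01 ± 0.56 (SE), adjusted p = 0.17). The RNA helicase Dhx58 was at 15.7, 19.1 and 15.7 and 20.1, 44.1 and 41.96 CPM (log2 fold change 1.07 ± 0.30 (SE), adjusted p = 0.18), and these were the 2 genes that DESeq2 called, with adjusted p of 0.012 and 0.025. For both, every Fgg390-396A library was above every WT library. Slfn8 was at 31.9, 18.4 and 33.5 and 53.4, 34.5 and 60.7 CPM (log2 fold change 0.82 ± 0.27 (SE), adjusted p = 0.26) and Herc6 at 5.22, 4.26 and 3.47 and 7.86, 5.13 and 13.6 CPM (log2 fold change 1.03 ± 0.38 (SE), adjusted p = 0.31), the groups of Herc6 overlapping. Neutrophil markers summed to 3448 to 12940 CPM in WT and 2490 to 5653 CPM in Fgg390-396A infiltrating cells, and monocyte markers to 2059 to 2243 and 1898 to 2260 CPM. The part of these shares in the difference was not tested.

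The difference between genotype effects was tested in itself. Between 7 d and 1 d in microglia 0 members passed an adjusted p under 0.1, as did 0% of all genes. The median of this difference over the members was -1.02 on the log2 scale, with 38 negative, and it was -0.251 without Fgg390-396A replicate 3 at 1 d. Ifit3b had the smallest p (log2 fold change -2.64 ± 0.83 (SE), adjusted p = 1), followed by Irf7 (log2 fold change -1.88 ± 0.69 (SE), adjusted p = 1) and Ifi27l2a (log2 fold change -1.51 ± 0.66 (SE), adjusted p = 1). Irf7 was at 3.97, 2.97 and 5.86 CPM in WT and 5.52, 3.30 and 17.1 CPM in Fgg390-396A microglia at 1 d, and Ifi27l2a at 28.8, 22.04 and 33.8 and 34.4, 16.4 and 84.9 CPM. Between infiltrating cells and microglia at 1 d 0 members passed, beside 0.0462% of all genes, and the median difference was -0.002.

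In several groups 1 library stood above the others across the members. Replicate 3 of the Fgg390-396A microglia at 1 d was the highest of its group in 39 of 39 members, at a median of 3.34 times the mean of the other two libraries (range 1.37 to 7.58 times), whereas it was the highest in 28.9% of the 12302 genes above 1 CPM. Isg15, the ubiquitin-like protein that is joined to newly made proteins, was at 17.9, 8.81 and 64.6 CPM in the 3 libraries, and Zbp1 at 11.2, 5.79 and 40.5 CPM. Replicate 1 of the Fgg390-396A microglia at 7 d was the highest in 39 members too (median 1.69 times the others) and in 36.6% of genes above 1 CPM. Replicate 3 of the Fgg390-396A infiltrating cells was highest in 36 members and in 35.2% of genes above 1 CPM, and sham replicate 3 in 34 members and in 43.9% of genes, the largest share of any library.

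The median SD of log2 CPM among the 3 libraries of a group was 1.21 over the members in Fgg390-396A microglia at 1 d, against 0.293 over genes above 1 CPM. In WT microglia at 1 d the same values were 0.380 and 0.323, and at 7 d 0.274 and 0.271. Infiltrating cells had 0.293 and 0.357 in WT and 0.607 and 0.505 in Fgg390-396A mice, Fgg390-396A microglia at 7 d 0.517 and 0.236, and sham microglia 0.577 and 0.290. Over the 21 libraries, deviations of log2 CPM from the group mean correlated at a median Pearson r of 0.678 between pairs of members. A member correlated with the mean of the others at a median of 0.829, and a gene above 1 CPM with the member mean at a median of 0.0311. The highest were Ifi204 (0.968), Oasl2 (0.957) and Usp18 (0.954), and the lowest Ifi44 (0.491), the least abundant member, and Ifi35 (0.219). These points share their libraries and scaling factors and are given as a description. The group with the widest spread, Fgg390-396A microglia at 1 d, weighs most in these correlations.

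**Figure D4:**
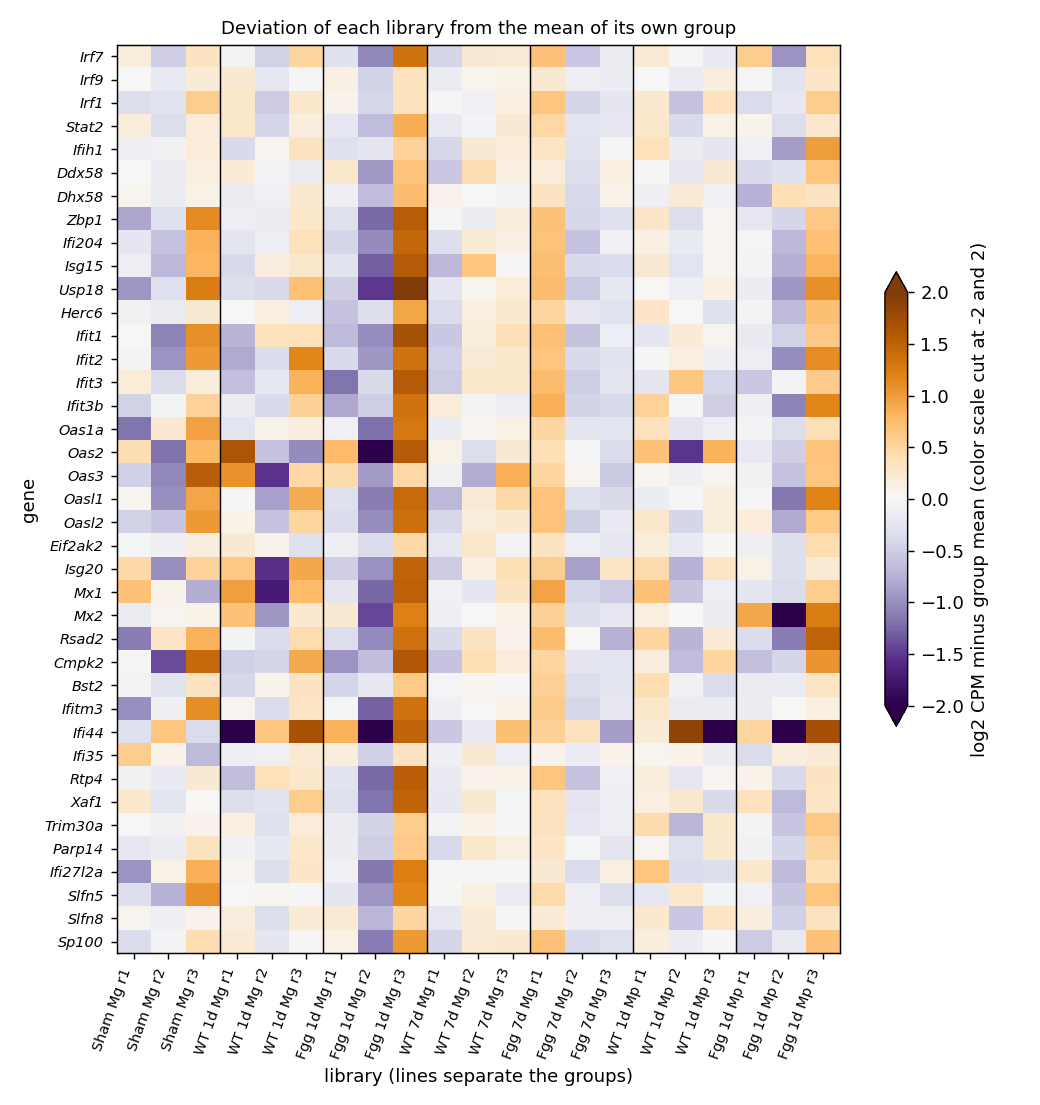
Deviation of log2 CPM in each library (columns) from the mean of its own group, for the 39 genes (rows); orange is above the group mean and purple below. Replicate 3 of the Fgg390-396A microglia at 1 d and replicate 1 of those at 7 d are above their group mean in 39 of 39 genes.

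Replicate 3 of the Fgg390-396A microglia at 1 d had marker sums within or below those of its group, except in 1 list. Its monocyte markers summed to 37.0 CPM, against 95.3 and 32.3 CPM in replicates 1 and 2, its neutrophil markers to 22.7 CPM, against 334.5 and 51.7, and its microglia markers to 5327 CPM, against 6877 and 5457. Border macrophage markers summed to 89.8 CPM, against 110.2 and 107.7. T and NK cell markers were at 0.281 CPM, with Cd3e, Nkg7 and Ncr1 at 0 in every library of the group, and B cell markers at 2.73 CPM, against 6.03 and 5.61. The plasmacytoid dendritic cell list was highest there, at 213.4 CPM against 128.2 and 148.1. Of its 4 genes, the member Bst2 was at 148 CPM against 72.1 and 84.8, Tcf4 at 64.6 CPM against 55.98 and 63.2, Ccr9 at 0.321 CPM against 0.0895 and 0.0755, and Ly6d at 0 in the 3 libraries, and their part in the result was not tested. In the sham group, replicate 3 also had the highest sums of monocyte (46.2 CPM), neutrophil (615.1 CPM) and border macrophage markers (188.1 CPM), and their part in its higher member levels was not tested. Markers of neurons, astrocytes, oligodendrocytes and endothelium summed to 0.452 to 44.6 CPM over all libraries.

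Other genes of the pathway were counted in the same fit, and 33 of them had enough counts. Against sham controls, WT microglia had 2 of 33 higher and 3 lower at 1 d, and Fgg390-396A microglia had 1 higher and 1 lower. Ikbke, a kinase that activates IRF3 and IRF7, rose at both times in both genotypes, with log2 fold changes of 3.68 and 3.28 in WT and 2.99 and 2.97 in Fgg390-396A mice. Its sham levels were 0.128, 0.0380 and 0.327 CPM, near the floor of 3 counts. Those that fell at 1 d in WT microglia were Ifngr1, a chain of the interferon-γ receptor (log2 -1.33), and the endosomal receptors Tlr3 (-1.42) and Tlr9 (-1.94), of which Tlr9 fell in Fgg390-396A microglia as well (-1.28). Ligand transcripts were near the floor. Ifnb1 lay between 0 and 0.487 CPM, Ifng between 0 and 0.610 CPM, and Ifna2 was above 0 in 1 library, at 0.309 CPM, whereas 5 further ligand genes, Ifna1, Ifna4, Ifna5, Ifnl2 and Ifnl3, did not reach the minimum of 5 counts. No gene of the interferon receptors or their JAK kinases rose in microglia against sham controls. In infiltrating cells against microglia, Jak2 was higher in both genotypes (2.11 and 2.40), and Tlr3, Tlr7, Tmem173 (STING) and Cgas were lower in both, the last of these encoding the DNA-sensing enzyme whose product activates STING. Between genotypes 0 of 33 passed in any of the 3 comparisons.

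Members with and without an ISRE match in their promoter were set side by side. In WT microglia at 7 d the 16 with a match had a median log2 fold change over sham of 3.17, with 14 that rose, and the 13 without had 2.26, with 5 that rose. At 1 d in WT microglia the medians were 0.686 and 0.273, with 5 and 1 that rose and 2 and 1 that fell. In infiltrating cells against microglia of WT mice the order was the other way, at 1.69 and 2.09. Ddx58 and Slfn8, which fell at 1 d, had an ISRE match, and Irf1, which fell as well, had a GAS match only.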

How the data were processed

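RNA was sequenced from 21 libraries in 7 groups of 3. The authors trimmed reads with trimgalore v0.6.6, quantified them with salmon v1.4.0 in nf-core/rnaseq v3.0 (GRCm38), and deposited expected counts, scaled from transcript shares so that length is divided out and not normalized between libraries. These were rounded. Of 45706 identifiers, 45143 matched GENCODE M21, and 563 did not. The members, roles and other lists were chosen with earlier results of these data known.

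One edgeR 4.0.16 model (R 4.3.3) was fitted to the counts (TMM scaling by 0.735 to 1.55, glmQLFit, glmQLFTest, 1 mean per group, genes with at least 5 counts), with Benjamini-Hochberg adjustment over 23815 genes. Log2 CPM used a prior count of 1. The fit was tested on data simulated with less spread between replicates than these libraries had. A first pass mark over all changed genes was narrowly missed, mostly through low-count genes. It was replaced, after this was seen, by a mark on high-count genes. The simulation therefore does not show how the fit performs on low-count members at the spread of these data. Conditions came from the labels' titles. Alternatives were DESeq2 1.42.0, its size factors, other filters, a replicate block, compared groups alone, no fold threshold, no ribosomal RNA, and leaving out each library. No label says that a replicate number marks shared mice, and libraries were not treated as paired. Replicates of every group differed by at least 20 times the chi-square expected per degree of freedom. All 39 members were counted. Values in every library are given for up to 3 called members in each direction of a comparison, by adjusted p among those whose groups do not overlap, for the 2 most abundant members of each role, and for up to 4 members in each comparison between genotypes, by unadjusted p under 0.05. Some genes of the pathway and marker lists are not reported here.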

Additional observations from a re-analysis of the deposited data

Results flagged for a closer look

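Ddx58 was flagged because its response to injury differed between time points in WT microglia. Its log2 fold change over sham controls was -1.25 at 1 d and 0.88 at 7 d, a difference of 2.13 (adjusted p = 0.00039, edgeR), and it was higher in all 3 libraries at 7 d than in any library at 1 d. Slfn8 was flagged for the same pattern, with -1.02 at 1 d, 0.88 at 7 d and a difference of 1.90 (adjusted p = 0.00018). Neither gene passed the test against sham controls at 7 d. Ifit3b was flagged because every Fgg390-396A library lay above every WT library at 1 d and below every WT library at 7 d. At 1 d the gap was narrow, from 1.13 CPM in WT replicate 3 to 1.15 CPM in Fgg390-396A replicate 1, with Fgg390-396A replicate 3 at 5.26 CPM. Groups lay apart in these directions in 5.73% of all genes at 1 d and 5.28% at 7 d. The log2 fold changes of Ifit3b were 1.69 at 1 d and -0.95 at 7 d. The difference between these effects was tested and did not pass (log2 -2.64, adjusted p = 1 over all genes, unadjusted p = 0.00508). The Ifit3b transcript aligned with Ifit3 over 1700 of its 2000 bases, at 97.8% identity. For Ifit3 the effects were 1.43 and -0.13.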

How the results depend on the processing

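No called value changed direction under any alternative run. Single genes were followed where the main edgeR model called them, and for up to 4 members in each comparison between genotypes. Of these values under an alternative, 2048 stayed on their side of the threshold, 244 no longer passed and 4 came to pass. The 4 were those of Dhx58 (log2 1.09) and Ifit3 (2.03) between genotypes in infiltrating cells by DESeq2, and both without Fgg390-396A replicate 1 there. Members not called in the other comparisons were not followed singly. Some of them came to pass, as the count at 7 d against sham controls reached 32 in WT and 27 in Fgg390-396A microglia. With 1 library left out, the number of members that passed ranged from 5 to 12 in WT microglia at 1 d against sham controls, 4 to 15 in Fgg390-396A microglia at 1 d, 3 to 18 in Fgg390-396A microglia at 7 d, 15 to 26 from 1 d to 7 d in WT microglia, 0 to 19 from 1 d to 7 d in Fgg390-396A microglia, and 0 to 2 between genotypes in infiltrating cells. Medians of the log2 fold change ranged from 2.31 to 3.32 in WT and 1.67 to 3.04 in Fgg390-396A microglia at 7 d against sham controls. From 1 d to 7 d in Fgg390-396A microglia they ranged from 0.619 to 1.72. Between infiltrating cells and microglia the ranges were 1.89 to 2.48 in WT and 1.48 to 3.03 in Fgg390-396A mice. For the difference of genotype effects between 7 d and 1 d the range was -1.42 to -0.251. Between genotypes at 1 d it was -0.0313 to 1.02 in microglia and 0.19 to 0.836 in infiltrating cells. Fitting the compared groups alone gave 6 members in Fgg390-396A microglia at 1 d against sham controls and 0 from 1 d to 7 d in that genotype, where DESeq2 gave 13 and the replicate block 12. DESeq2 called 2 members between genotypes in infiltrating cells. The causes were not tested. The replicate block changed no other count of members by more than 1.5 times. What same-numbered libraries share beyond the number is not given, nor whether microglia and infiltrating libraries at 1 d came from the same brains. Deviations from the group mean correlated at a mean r of 0.019 over 63 same-numbered pairs, and in no comparison were all 3 pairs over 0.1 or did all 6 libraries correlate best with their own number. Fgg390-396A and WT microglia at 1 d came closest, at 0.0951 to 0.354 with 5 of 6 libraries, and the block also called 0 members there. Ligand genes at a few counts limit what can be said of interferon transcripts at this depth, and 3 libraries per group limit the comparisons between genotypes.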

Other observations

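Genes outside the list followed the members across libraries of the same group. Of 12302 genes above 1 CPM, 40 had a within-group deviation that correlated with the member mean at an r over 0.8, and 24 of these were members. Those outside the list with the highest r, named after their values were seen, were Ifi209 (0.933), a DNA-sensor relative of Ifi204, Ly6a (0.924), a surface antigen of the Ly6 family, Znfx1 (0.890), Dtx3l (0.876), Tgtp2 (0.874), an interferon-γ-induced GTPase, and Cxcl10 (0.869), a chemokine that attracts T cells. Ifi209 shares sequence with its family, so that its reads may be divided with theirs. The Fgg390-396A microglia at 1 d, the group in which the members spread most, weigh most in these correlations too.

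Cxcl10 was at 3.22, 1.60 and 3.29 CPM in sham microglia, 58.3, 67.7 and 88.7 CPM in WT microglia at 1 d and 49.2, 57.6 and 244.2 CPM in Fgg390-396A microglia at 1 d. At 7 d it was at 56.6, 118.6 and 101.2 CPM in WT and 132.7, 39.4 and 30.6 CPM in Fgg390-396A microglia. The libraries that were highest for the members, replicate 3 at 1 d and replicate 1 at 7 d of the Fgg390-396A mice, were also the highest of their groups for Cxcl10. Cxcl10, like B2m below, was picked for its correlation with the members over these same libraries, so that this is no separate support. B2m, the light chain of MHC class I (r = 0.836), was at 2908, 2911 and 5055 CPM in Fgg390-396A microglia at 1 d and at 7301, 4571 and 5709 CPM at 7 d. In WT microglia it was at 2472, 3099 and 3273 CPM at 1 d and at 8450, 7714 and 8298 CPM at 7 d.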
